A study of Mus musculus with 36 samples.

Results

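The Ryr2 locus was described here through the 386 regions, of 1393120 in the whole table, that overlap chr13:11640000-12230000 on the mouse build mm9. This interval of 590 kb holds the gene, about 11645400 to 12199200, which is transcribed from the high end towards the low end, and a stretch beyond each end. Members were chosen by position, but the locus itself was picked because it was known to be more open in reprogrammed cells than in fibroblasts. The differences from fibroblasts below are therefore descriptions without a test, and tests are given only between reprogrammed cells of different ages.

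Ryr2 encodes the cardiac ryanodine receptor, a very large channel in the membrane of the sarcoplasmic reticulum. Calcium that enters a heart muscle cell through L-type channels at each beat opens it, and the calcium it releases from the store drives contraction. It is a gene of working heart muscle, and mutations in it are known for stress-induced ventricular tachycardia. ATAC-seq, the assay used, inserts sequencing adapters into open DNA with a transposase, so the reads counted over a region measure how accessible its chromatin was and not how much RNA the gene made.

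All cells came from neonatal hearts of Cd-1 mice that carry alpha-MHC-GFP, a green reporter driven by a cardiac myosin promoter. Explant cells with Thy1 on the surface and no GFP, described as largely fibroblasts, were infected with retroviruses. The control was infected with dsRed, received no inhibitor and was sorted for dsRed at day 7. The reprogrammed cells received Gata4, Mef2c and Tbx5 (GMT) together with the TGF-beta inhibitor sb431542 and the Wnt inhibitor xav939, and GFP-positive cells were collected at days 2, 3, 7, 14 and 21. Each of the 6 groups has 3 libraries, stated to be biological replicates. In every comparison with the control, the factors differ together with the inhibitors and with the colour sorted on, and at days other than 7 also with time, and these cannot be told apart. Since the sort keeps cells with an active cardiac promoter, the GMT libraries stand for sorted cells and not for all infected cells. In bulk libraries, more cells with an open locus and a more open locus per cell cannot be told apart. The labelled cell types were not checked against marker genes, because no mm9 annotation was used.

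Library totals ran from 2.29 to 23.2 M counts, and 1043 to 30774 counts per library lay in the locus. One chromosome 1 region held 4.52 to 49.4% of a total, with the highest shares in fibroblast replicates 1 and 2 (49.4 and 49.3%, against 14.5% in replicate 3). Levels are therefore given as CPM, counts scaled to a common library size of 1e6, after scaling by trimmed means of log ratios (TMM), on which 1 count was worth 0.0418 to 0.360 CPM. On principal components day 2 replicate 1, day 3 replicate 1 and day 14 replicate 3 stood apart from the other libraries, and results that turn on them are given without them. Among the controls, fibroblast replicate 3 differed from replicates 1 and 2, at 105 against -58.3 and -65.5 on component 3. Replicates 1 and 2 were used as separate libraries, with their sum as an alternative. The labels name a pair of sequencing cores without assigning libraries to them, so their part was not tested.

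The start of the gene is shown first, because the region that spans it was among the most open of the locus. RefSeq's promoter of Ryr2 on build GRCm38.p6 covers chr13:12106946-12107195 on the minus strand, the 250 bases before the annotated start, and cannot be laid over the mm9 counts by coordinate. It is printed 5′ to 3′, with matches to the E box letters CANNTG in capitals.
Ryr2 promoter: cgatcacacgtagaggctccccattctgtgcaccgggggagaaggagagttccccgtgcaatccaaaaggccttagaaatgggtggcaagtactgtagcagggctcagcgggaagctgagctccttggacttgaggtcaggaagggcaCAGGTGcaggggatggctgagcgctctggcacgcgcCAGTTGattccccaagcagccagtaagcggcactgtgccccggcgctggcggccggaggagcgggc
The 2 E box matches begin 102 and 66 bases before the start, at positions -102 and -66, and 66.2% of 32851 RefSeq promoters of this length hold at least 1 match. Letters read by the 3 factors used were also searched for on both strands. The letters AGATAA, for Gata factors, had 0 matches in this window and occur in 9.99% of the promoters. A CTA and a TAG with 4 bases between them, for Mef2 factors, had 0 matches and occur in 3.20%. The letters AGGTGT, for T-box factors, had 0 matches and occur in 11.8%. Among general promoter elements, TATAAA had 0 matches and occurs in 12.4%, and likewise GGGCGG, the box read by Sp1, with 0 matches, occurs in 32.7%. No match says only that these letters are not in this window. The bases are 63.2% G or C, against a median of 52.4% over all promoters.

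The whole locus was more accessible in GMT cells than in fibroblasts from the earliest day measured. The CPM summed over all 386 regions were 472, 413 and 376 in the 3 fibroblast libraries. At day 2 the sums were 1080, 1048 and 931, and at day 3 they were 1080, 960 and 921. Each of these libraries lay above every fibroblast library by a wide margin. At day 7 the sums were 1476, 1369 and 1264, at day 14 they were 1048, 1214 and 793, and at day 21 they were 1126, 1082 and 1477. Day 7 lay above all libraries of days 2, 3 and 14, whereas day 21 overlapped day 7 through replicate 3 and day 14 through replicates 1 and 2.

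Fibroblasts averaged 420 ± 48.5 CPM (SD, n = 3) over the locus. Day 2 averaged 1020 ± 78.6, 2.43 times that mean, and day 3 averaged 987 ± 82.5, 2.35 times. Day 7 averaged 1370 ± 106, 3.26 times, day 14 averaged 1018 ± 212, 2.42 times, and day 21 averaged 1228 ± 217, 2.92 times. Ordered by mean, the groups ran from fibroblasts through days 3, 14, 2 and 21 to day 7. Days 3, 14 and 2 did not differ beyond their spread, and neither did days 21 and 7. The place of day 7 depended on the scaling: with library totals alone the log2 ratio of the sum to fibroblasts was 1.87 at day 7, below 2.04 at day 21 and close to 1.83 at day 2. Day 14 and day 21 were the most spread groups.

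**Figure D1:**
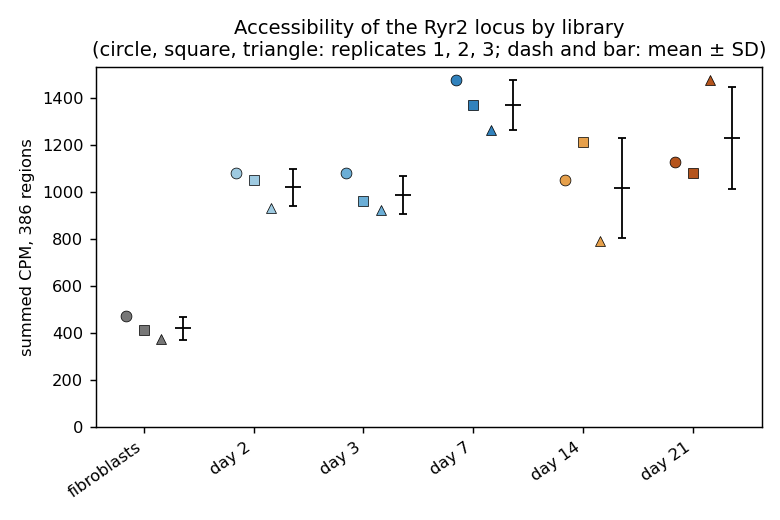
Summed CPM over all regions of the Ryr2 interval (y axis) for each library, by group (x axis), with the mean and SD of 3 libraries beside the points. Fibroblast libraries lie between 376 and 472, and all 15 GMT libraries lie between 793 and 1477.

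The difference was not carried by a few sites but lay over nearly all of the gene. Of the 386 regions, 249 had enough counts to be tested and 137 did not. Of the 249, 154 (61.8%) were at least 2-fold above fibroblasts at day 2, 205 (82.3%) at day 7 and 191 (76.7%) at day 21. Of all tested regions of the table, 19.6, 20.0 and 19.5% were so at these days. Mean levels below those of fibroblasts were found in 12 of the 249 regions at day 2, 5 at day 7 and 4 at day 21. Over all tested regions the median ratio to fibroblasts was 1.00, 1.02 and 1.06 at these days. Over the 249, the median log2 fold changes of days 2, 3, 7, 14 and 21 were 1.20, 1.05, 1.60, 1.17 and 1.48, beside medians between -0.01 and 0.07 over all tested regions. A region had to reach a minimum count in enough libraries to be tested, so these medians do not stand for all members. The 137 untested regions had a median width of 249 bases and 4.02% of the locus counts. Their sum was 24.4 ± 5.35 CPM in fibroblasts and 51.5 ± 10.7 CPM at day 21, a ratio of 2.11.

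In edgeR's quasi-likelihood fit, at an adjusted p under 0.05, 108 of the 249 regions were called higher than fibroblasts at day 2, where 12.2% of all tested regions were, and 0 were called lower, where 8.09% were. At day 3 the call was made for 102 higher and 0 lower, against 13.2% and 8.84% of all. At day 7 it was made for 178 higher and 0 lower, against 15.5% and 12.0%. At day 14 it was made for 106 higher and 0 lower, against 12.8% and 9.70%. At day 21 it was made for 157 higher and 0 lower, against 13.3% and 10.1%, and for 103 higher without day 21 replicate 3. At all 5 days 75 regions were called higher (7.12% of all), and 192 were called on at least 1 day (21.1% of all). All 15 GMT libraries lay above all 3 fibroblast libraries in 96 of the 249 regions, which held for 8.71% of all tested regions. The locus was chosen on this contrast, so nothing is read from these counts.

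With TMM scaling most regions had their highest group mean at day 7, which did not hold with library totals alone. With TMM the highest of the 6 group means fell at day 7 in 148 of the 249 regions (59.4%), at day 21 in 57, at day 2 in 22, at day 14 in 13, at day 3 in 7 and in fibroblasts in 2. Over all tested regions day 7 was the highest group in 14.6% and fibroblasts in 30.1%. With library totals alone day 7 was the highest in 49 of the 249 regions (19.7%, against 2.83% of all tested regions) and day 21 in 116 (46.6%, against 25.3%).

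Regions of the table covered most of the interval, with single strong peaks among them. All regions covered 85.5% of it and the tested ones alone 78.1%. The cover by all regions was more than in 99.9% of 1812 windows of 590 kb across the chromosomes of the table, where the median was 68.4%. It includes regions with few counts, so it is not the share of open chromatin. Of the tested regions, 41 (16.5%) were at least 3 kb wide, against 5.99% of all tested regions. The 41 broad regions and the 208 narrower ones differed little in their ratio of day 21 to fibroblasts, 2.93 and 2.99. The 8 highest regions held 17.2% of the locus sum in fibroblasts and 18.7% at day 21, and 49 and 44 regions made up 50% of it. The share held by the strongest regions was thus about the same in both groups.

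**Figure D2:**
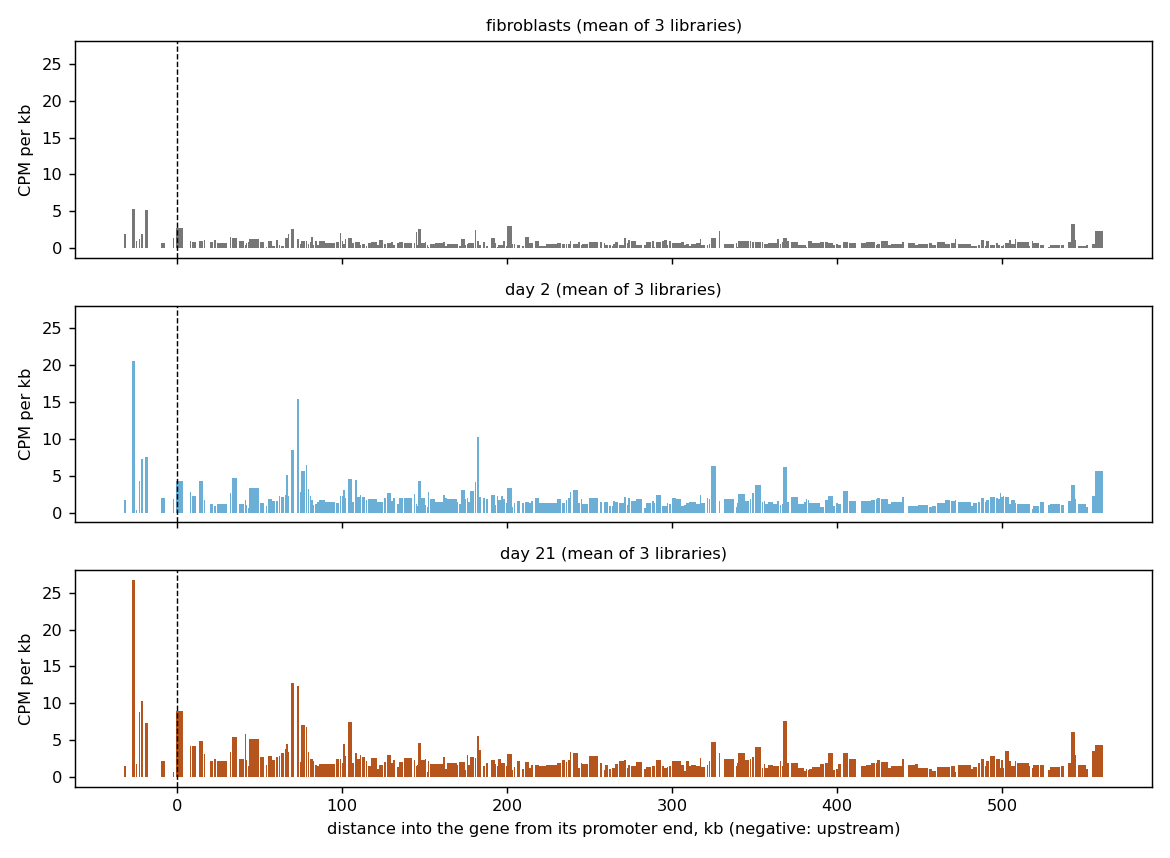
Mean CPM per kb of each tested region (y axis) against its distance into the gene from the promoter end in kb (x axis, dashed line at the promoter end) in fibroblasts, at day 2 and at day 21. The region 26.3 kb upstream is the tallest bar at both days, at 20.6 and 26.7 CPM per kb, and low bars over the whole gene are higher in GMT cells than in fibroblasts.

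Cut into stretches of 50 kb from the promoter end, every full stretch of the gene was 2.39-fold to 3.95-fold above fibroblasts at day 21. In the first 50 kb the summed CPM went from 47.8 ± 8.08 in fibroblasts to 163 ± 37.2 at day 21, a ratio of 3.41. From 50 to 100 kb it went from 35.6 ± 2.04 to 141 ± 32.1, the highest ratio of the gene at 3.95. The lowest ratio, 2.39, was that of the stretch from 250 to 300 kb, where the sum went from 33.0 ± 6.78 to 78.9 ± 15.4. At day 7 the highest ratio was that from 150 to 200 kb, 4.03, and at day 2 the same stretch stood at 3.22. Which stretch had the highest ratio was not tested.

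The higher accessibility ran on just past both ends of the gene, and the next stretches stood near fibroblast levels, but not all those farther upstream did. Regions that overlap the gene summed to 374 ± 48.7 CPM in fibroblasts and 1098 ± 192 at day 21, a ratio of 2.94. The regions of the interval outside the gene gave 46.9 ± 0.857 and 130 ± 24.4, a ratio of 2.78. With regions beyond the interval included, the 50 kb directly upstream of the promoter end stood at 2.36 times fibroblasts at day 21, and the stretches from 50 to 100 kb and from 100 to 150 kb upstream stood at 1.26 and 0.98. At the far end, the stretch from 550 to 600 kb, which holds the end of the gene, stood at 1.39, and that from 600 to 650 kb at 0.98. Farther upstream, between 150 and 300 kb from the promoter end, the ratio was again 1.85, 3.40 and 2.02 in successive stretches.

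The flank of 590 kb below the interval, 649 regions of which 40 were tested, summed to 227 ± 36.8 CPM in fibroblasts and 168 ± 16.1 at day 21, a log2 ratio of -0.43 with TMM scaling that turned to 0.12 with library totals alone. The flank above it, 649 regions of which 129 were tested, went from 655 ± 52.6 to 855 ± 101, a ratio of 1.31. In RefSeq's gene order the neighbour below Ryr2 is Chrm3, a muscarinic receptor gene, and the neighbours above are Mtr, a methionine synthase gene, and then Actn2, the gene of a Z-disc actinin of heart and skeletal muscle. Which regions of the flanks belong to these genes was not determined. At the edges of the interval, the last region inside on the promoter side, chr13:12229905-12231130, had 2.36 CPM in fibroblasts and 1.76 at day 21, and the next one outside, chr13:12238701-12240253, had 5.52 and 4.44. At the far edge the last region inside, chr13:11637890-11642815, had 11.6 and 21.5, and the next one outside, chr13:11634744-11636688, had 2.00 and 2.36.

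**Figure D3:**
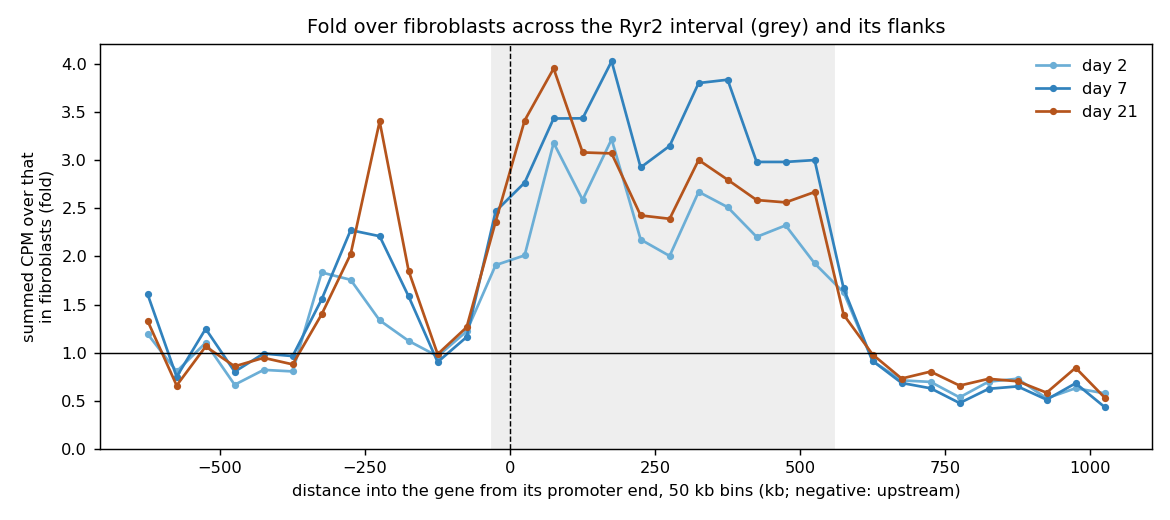
Ratio of the mean summed CPM at days 2, 7 and 21 to that of fibroblasts (y axis) in stretches of 50 kb by distance from the promoter end in kb (x axis), with the Ryr2 interval in grey and TMM scaling. Within the gene the day 21 ratios lie between 2.39 and 3.95 in full stretches, they are 2.36 in the 50 kb directly upstream and 1.39 at the far end of the gene, 1.26 and 0.98 in the next stretch on either side, and those below 1 on the right depend on the scaling, since that flank's log2 ratio turns from -0.43 to 0.12 with library totals alone.

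Set against the rest of the table, the interval was ordinary in fibroblasts and among the most accessible in GMT cells. Its sum in fibroblasts exceeded that of 58.3% of the 1812 windows of the same length with at least 10 tested regions, and its sum at day 21 exceeded that of 98.8%. The median window had a ratio of 0.930 at day 21, with 5 and 95% points at 0.688 and 1.45. At each of the 5 days 0 windows reached the ratio of the Ryr2 interval. The locus was chosen with this difference known and the windows are not aligned to genes, so nothing is read from this rank. By the correlation of log2 group means over the 6 groups, the windows whose course was most like that of Ryr2 were chr15:27140001-27730000 (r = 0.995), chr11:54280001-54870000 (r = 0.994) and chr1:153990001-154580000 (r = 0.993). Their ratios at day 21 were 1.45, 1.77 and 1.45, so they shared the course and not the size. With 6 points, all from the same libraries, 74 of 1810 windows reached an r of 0.95.

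The most accessible region of the locus lay upstream of the gene. This region, chr13:12224356-12226624, is centred 26.3 kb before the promoter end and had 11.1, 11.3 and 13.3 CPM in fibroblasts. It had 42.3, 42.6 and 55.4 at day 2, 49.6, 47.3 and 45.5 at day 3, and 61.8, 67.6 and 76.2 at day 7. At day 14 it had 64.7, 48.4 and 39.4, and at day 21 it had 53.5, 50.2 and 78.1. Every GMT library was well above every fibroblast library, and day 2 stood already at 3.92 times the fibroblast mean. Per length it had 5.26 CPM per kb in fibroblasts, 20.6 at day 2 and 30.2 at day 7.

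Its neighbours upstream of the gene did not all share this course. The region 18.1 kb upstream, chr13:12216409-12218296, had 10.2, 11.1 and 7.93 CPM in fibroblasts, 14.7, 12.9 and 14.7 at day 2, and 15.4, 10.2 and 15.9 at day 21. Per length it was nearly as open in fibroblasts as the region 26.3 kb upstream, at 5.17 CPM per kb, but at day 21 it stood at only 1.42 times the fibroblast mean, with overlapping libraries. Between the pair, the region 21.0 kb upstream, chr13:12219706-12220651, had 2.46, 1.39 and 1.44 CPM in fibroblasts, 5.44, 8.47 and 6.72 at day 2, and 9.25, 8.62 and 11.3 at day 21, which is 5.51 times the fibroblast mean. These neighbours lie outside the rule for named regions, and their values were seen before they were picked.

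The region across the promoter end, chr13:12195337-12199759, 4422 bases wide, was closer to fibroblasts at days 2 and 3 than later. It had 14.7, 11.1 and 9.73 CPM in fibroblasts, 6.08, 27.9 and 22.6 at day 2, and 8.97, 29.3 and 23.5 at day 3. It had 31.0, 37.2 and 38.9 at day 7, 34.8, 35.4 and 19.0 at day 14, and 35.7, 36.2 and 46.7 at day 21. From day 7 on every library was above every fibroblast library. At days 2 and 3 replicate 1, which are the early libraries that stand apart, lay below all 3 fibroblast libraries and the other replicates lay above them. Day 2 stood at 1.59 times the fibroblast mean, day 7 at 3.02 times and day 21 at 3.34 times. Without the 3 libraries that stand apart these ratios were 2.18, 3.08 and 3.39, with 2 libraries at day 2. Per length the region went from 2.68 CPM per kb in fibroblasts to 8.93 at day 21, well under the upstream region.

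A group of open regions lay between 64.1 and 76.5 kb into the gene. The region chr13:12125257-12126619, 73.3 kb in, was nearly closed in fibroblasts, with 1.92, 2.08 and 1.08 CPM. It had 28.5, 15.2 and 19.3 at day 2, 22.4, 19.2 and 15.1 at day 3, and 19.3, 25.5 and 30.0 at day 7. At day 14 it had 22.8, 16.8 and 10.9, and at day 21 it had 17.1, 13.9 and 19.4. Its ratio to fibroblasts was 12.4 at day 2 and 9.91 at day 21, and the groups did not overlap at any day. The region 70.0 kb in, chr13:12128235-12130234, had 5.56, 6.94 and 3.24 CPM in fibroblasts, 17.6, 18.7 and 14.3 at day 2, and 22.0, 23.2 and 31.2 at day 21. It was thus more open in fibroblasts than the former. Its day 2 and day 21 libraries did not overlap, but edgeR called 0 regions of the locus between these days. The region 76.5 kb in, chr13:12121683-12123720, had 2.06 ± 0.550 CPM in fibroblasts, 11.5 ± 3.11 at day 2 and 14.4 ± 3.42 at day 21. The region 64.1 kb in, chr13:12134136-12136005, had 0.641 ± 0.283, 3.97 ± 2.36 and 6.09 ± 2.13 CPM in the same groups. Between them a 200-base region, chr13:12130499-12130699, had 1 fibroblast library above 0 (0.274 CPM) and 1.72 ± 0.314 CPM at day 21.

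Single strong regions stood deep in the gene too. The region 368 kb in, chr13:11829572-11832022, had 3.37, 3.24 and 3.60 CPM in fibroblasts, 15.7, 15.6 and 13.9 at day 2, 35.2, 27.9 and 27.7 at day 7, and 19.8, 12.9 and 23.4 at day 21. Its day 7 libraries lay above all libraries of days 2, 3, 14 and 21, and its ratio to fibroblasts was 8.88 at day 7 and 5.49 at day 21. The region 325 kb in, chr13:11872685-11875489, went from 3.85 ± 0.933 CPM to 17.7 ± 1.60 at day 2 and 13.4 ± 1.57 at day 21. The region 46.8 kb in, chr13:12149505-12155313, is 5808 bases wide and had 7.56 ± 1.36, 19.2 ± 6.74 and 30.2 ± 10.8 CPM in the same groups. With TMM scaling the region 368 kb in thus had its highest mean at day 7. This did not hold for every region deep in the gene, since the only one that fell from early to late cells, given below, was higher at day 2 than at day 7. At the far edge, the region that straddles the interval's low end had 11.6 ± 2.83 CPM in fibroblasts, 27.9 ± 1.11 at day 2 and 21.5 ± 3.80 at day 21.

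Of the other regions with the largest ratios at day 21, those at 152 kb (chr13:12046501-12047145), 499.8 kb (chr13:11698741-11699981), 101 kb (chr13:12097373-12098326) and 41.6 kb (chr13:12157417-12157695) into the gene were weak. Their fibroblast means lay between 0.138 and 0.530 CPM. In fibroblast replicates 1, 2 and 3, 1 count was worth 0.0912, 0.231 and 0.360 CPM, so their ratios of 9.80, 9.56, 7.92 and 11.9 rest on very few counts and are imprecise. The lowest log2 fold changes at day 21 were -0.63 for chr13:11726921-11727849, 472 kb into the gene, -0.47 for chr13:12229905-12231130 at the upstream edge, and -0.21 for chr13:12053858-12054466, 145 kb into the gene. These regions had 1.20 ± 0.583, 2.36 ± 0.192 and 1.34 ± 0.868 CPM in fibroblasts and 0.590 ± 0.237, 1.76 ± 0.498 and 0.912 ± 0.660 at day 21, and none of them was called lower. Leaving out single libraries moved the value of chr13:12053858-12054466 between -1.18 (without day 21 replicate 3) and 0.46 (without fibroblast replicate 2), so its direction rests on single libraries, and those of the other regions stayed below 0.

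**Figure D4:**
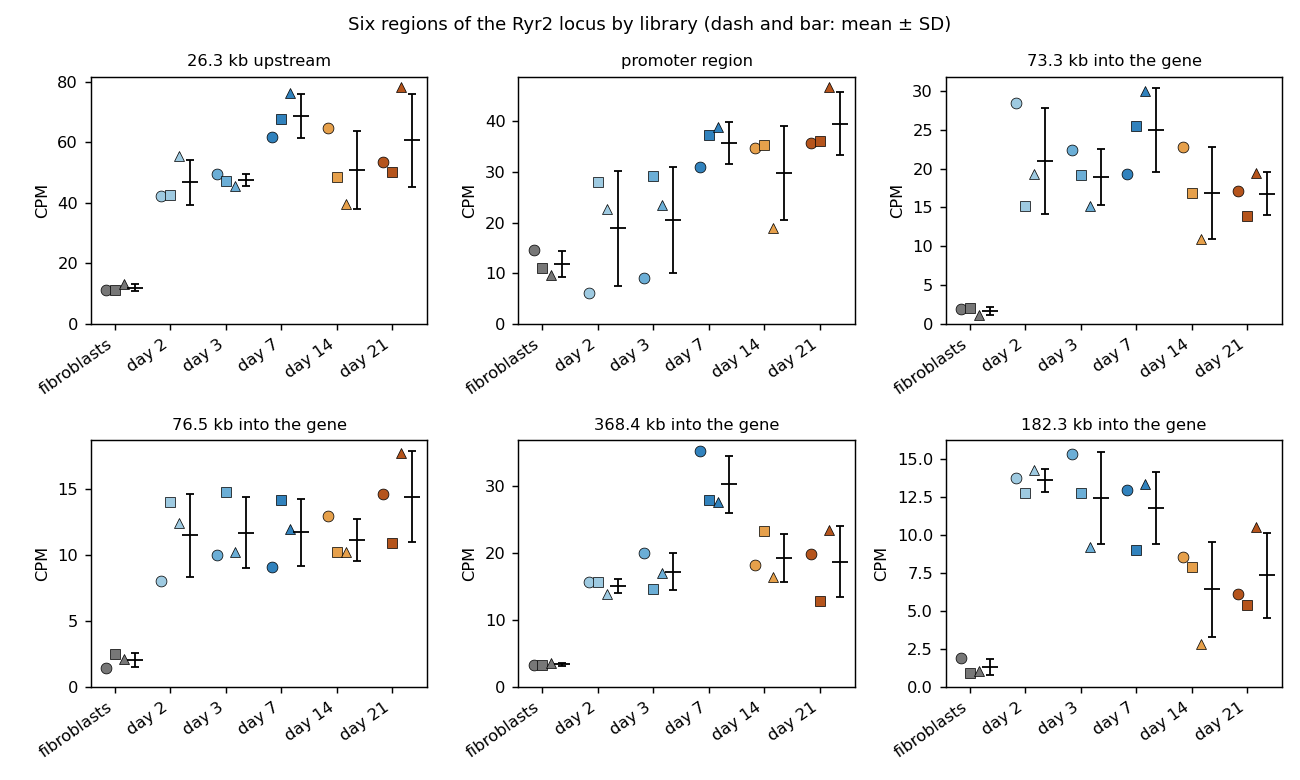
CPM of 6 regions of the locus (y axis, each panel on its own scale from 0) for each library by group (x axis), with circles, squares and triangles for replicates 1, 2 and 3 and the mean and SD beside them. The upstream region is already at 42.3 to 55.4 at day 2, the promoter region has replicate 1 of days 2 and 3 below fibroblasts, and the region 182 kb into the gene falls from days 2 and 3 to days 14 and 21.

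Whether the locus kept opening as reprogramming went on was tested between the 6 late libraries (days 14 and 21) and the 6 early ones (days 2 and 3), a contrast without the fibroblasts. The locus sum was 1123 ± 224 CPM in late and 1003 ± 74.3 CPM in early libraries (n = 6 each), a log2 difference of 0.14 with p = 0.314 in an exact two-sided permutation test over 924 arrangements. The late libraries ran from 793 to 1477 and the early ones from 921 to 1080, so the late range enclosed the early one. Without day 14 replicate 3, the lowest late library, the difference was 0.24 (exact permutation p = 0.0195). Without day 21 replicate 3, the highest late library, it was 0.058 (exact permutation p = 0.619). Without all 3 libraries that stand apart it was 0.29 (exact permutation p = 0.0238). These p-values are not adjusted over the 2 values tested, and the difference depended on which library was left out.

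The promoter region was higher in late cells by a larger factor. It had 34.6 ± 8.87 CPM in late and 19.7 ± 9.83 CPM in early libraries (n = 6 each), a ratio of 1.75. The difference of the log2 values was 0.95, with p = 0.0303 in an exact two-sided permutation test and 0.0606 when adjusted over the 2 values tested, so it missed the threshold after adjustment. Late libraries ran from 19.0 to 46.7 and early ones from 6.08 to 29.3, and only day 14 replicate 3 among the late ones lay within the early range. Without the 3 libraries that stand apart, 2 of them early with low values, the difference was 0.53 (exact permutation p = 0.00794). That is the smallest p the test can give with the libraries left, 2 each at days 2, 3 and 14 and 3 at day 21. The late library left out was the only one within the early range. These early 2, replicate 1 of days 2 and 3, deviated alike from their group means over all tested regions (r = 0.321), whereas the permutation test treats libraries as independent. In edgeR's fit over all regions the promoter region's log2 change was 0.76 with an adjusted p of 0.051 for late against early, and 1.02 with an adjusted p of 0.14 for day 21 against day 2.

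In the same edgeR contrast of late against early, 6 of the 249 regions rose (2.41%, against 2.50% of all tested regions) and 1 fell (0.402%, against 3.66% of all). The share that rose was thus near the background of the table. The median log2 change was 0.19 over the 249 regions and 0.03 over all tested regions. The count of rises was 3 when either day 2 replicate 3 or day 14 replicate 1 was left out, where 1.66 and 1.28% of all tested regions rose. It was 10 when day 2 replicate 2 was left out, where 2.00% of all rose, and 12 without the 3 libraries that stand apart, where 3.09% did. With no filter on low counts, 0 regions of the locus were called in either direction, where 0.0119% of all regions rose. For day 21 against day 2, edgeR called 0 regions higher, where 0.572% of all were, and 0 lower, where 0.871% were. In that contrast 34 of the 249 regions (13.7%) had an unadjusted p under 0.05 in edgeR, near the 13.2% of all tested regions, and DESeq2 called 0.

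Of the 6 rises, 4 lay within the first 50 kb of the gene, a stretch that holds 17 of the 249 tested regions. This grouping was made after the calls were seen and was not tested, and 2.50% of all tested regions rose in this contrast. The rise with the lowest adjusted p, chr13:12187721-12189811, 10.4 kb into the gene, had 4.48, 5.08 and 4.28 CPM at day 2 and 3.96, 5.25 and 3.38 at day 3. It had 9.59, 5.72 and 7.60 at day 14 and 6.58, 8.00 and 11.6 at day 21, so no late library overlapped an early one (log2 change 0.91, SE 0.21, edgeR adjusted p = 0.0027). The rises at chr13:12181881-12182805, 16.9 kb in (log2 change 1.13, edgeR adjusted p = 0.0089), and chr13:12177017-12179234, 21.1 kb in (0.85, edgeR adjusted p = 0.024), had early means of 1.30 and 2.19 CPM and late means of 2.64 and 4.02. These 3 regions fall outside the rule for named regions: their values were seen before they were picked.

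The rises with the largest log2 changes were in weak regions. The region chr13:12223333-12224137, 24.5 kb upstream and next to the strongest region of the locus, went from 0.384 ± 0.242 CPM in early to 1.32 ± 0.384 in late libraries (log2 change 1.61, edgeR adjusted p = 0.0063). The region chr13:12167479-12167816, 31.6 kb in, went from 0.583 ± 0.543 to 1.52 ± 0.565 (1.27, edgeR adjusted p = 0.038). The region chr13:11680501-11681180, 518 kb in, went from 0.337 ± 0.215 to 1.13 ± 0.660 (1.51, edgeR adjusted p = 0.036), with its highest value, 2.38, in day 14 replicate 3. The calls at 31.6 and 518 kb in were the least stable, with an adjusted p under 0.05 in 16 and 15 of 24 alternatives.

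The only fall was that of chr13:12016194-12017516, 182 kb into the gene, which stood far above fibroblasts at the start. It had 1.92, 0.925 and 1.08 CPM in fibroblasts, 13.8, 12.8 and 14.3 at day 2, and 15.3, 12.8 and 9.23 at day 3. It had 12.9, 9.02 and 13.3 at day 7, 8.53, 7.88 and 2.85 at day 14, and 6.13, 5.39 and 10.5 at day 21. Late libraries averaged 6.88 ± 2.68 CPM and early ones 13.0 ± 2.09, with day 21 replicate 3 alone above the lowest early library (log2 change -0.84, SE 0.21, edgeR adjusted p = 0.0072). Its ratio to fibroblasts went from 10.4 at day 2 to 5.62 at day 21, so it stayed above every fibroblast library throughout.

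Of the stretches of 50 kb within the gene, the first had the largest ratio of late to early means, 1.56. Its early libraries averaged 90.3 ± 25.2 CPM and ran from 67.2 to 134, and its late libraries averaged 141 ± 40.0 CPM and ran from 83.6 to 194, so the ranges overlapped. The stretch from 150 to 200 kb, which holds the region that fell, had a ratio of 0.93, and the other full stretches within the gene had ratios between 1.00 and 1.21. The last stretch, from 550 kb on, which holds the end of the gene, had a ratio of 0.86 over the regions of the interval. Outside the gene, a stretch farther upstream had a larger ratio, 2.07. These ratios were not tested.

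**Figure D5:**
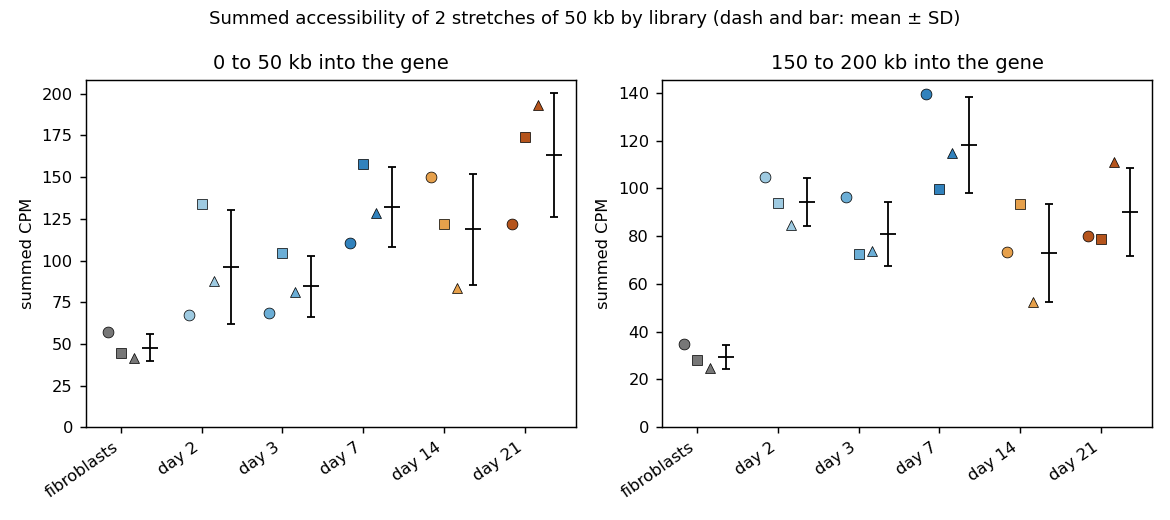
Summed CPM (y axis, from 0) in each library by group (x axis) for the first 50 kb of the gene and for the stretch from 150 to 200 kb, with the mean and SD beside the points. In the first stretch the late libraries (days 14 and 21) run from 83.6 to 194 and the early ones (days 2 and 3) from 67.2 to 134, whereas in the other stretch days 2 and 3 are on average slightly above days 14 and 21.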

How the data were processed

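Of the 36 ATAC-seq libraries in the labels, 18 were used, and the other 18 were not analysed here. The values used are whole-number read counts per region, deposited by the authors without normalization. Per the submitters' processing notes, Bowtie2, Picard, MACS2 and edgeR were used on build mm9. Their versions and settings, and any adapter offset or pooling before peak calling, were not given in the sources used here. As held, the table covers chromosomes 1, 10, 11, 12, 13, 14, 15 and 16 and chromosome 17 up to 79.1 Mb, and its last, incomplete line was not used. Whether a deposited start is counted from 0 or from 1 is not stated, so coordinates are as deposited.

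Counts were scaled with edgeR's TMM factors (edgeR 4.0.16 in R 4.3.3) and are given as CPM, per 1e6 of the effective library size. Regions were kept with filterByExpr (minimum count 10, minimum total 15). All 18 libraries entered 1 robust quasi-likelihood fit, 1 mean for each group, with 12 residual degrees of freedom. Tests were two-sided, with Benjamini-Hochberg adjustment over the 144810 regions kept and a threshold of 0.05. Single values per library were compared with exact permutation tests, the promoter region on log2(CPM + 0.5). The fit was tested on simulated data. Alternatives were RLE size factors, library totals alone, no filter, DESeq2 1.42.0, a replicate block, a threshold of 0.01, a pseudocount of 0.1, fibroblast replicates 1 and 2 summed, tested regions only, leaving out each library, and leaving out the 3 libraries that stand apart. Named regions were the promoter region, the 8 with the highest average level, the 8 with the largest and the 3 with the lowest fold at day 21 over fibroblasts (average log2 CPM of at least 0), and up to 3 called regions per direction with the largest change between GMT times. Regions outside this rule are marked in the text as chosen after their values were seen. The locus, the lists and the tests were chosen with earlier results of these data known. No mm9 annotation was used, so other calcium-handling genes, cell type markers and exons were not placed in the table.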

Additional observations from a re-analysis of the deposited data

Results flagged for a closer look

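In 46 groups of 6 libraries examined (early and late GMT cells, for the values named above), 2 had a library farther from the others than Dixon's 95% limit, and chance alone flags about 1 in 20 groups. In the region chr13:11726921-11727849, 472 kb into the gene, day 2 replicate 1 had 2.56 CPM, and the other early libraries had 0.791 to 1.22 CPM. In the region chr13:11680501-11681180, 518 kb into the gene, day 14 replicate 3 had 2.38 CPM, and the other late libraries had 0.462 to 1.10 CPM. Both are libraries that stood apart on principal components, and both regions are weak. What set these values apart was not tested.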

How the results depend on the processing

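Of the alternatives to the main results, 414 values stayed near the main value or on its side of the threshold. Of the others, 26 moved in size, 5 lost and 2 gained an exact permutation p under 0.05, and 1 changed sign. These others are given here, where the cause was not tested. With library totals alone the median log2 fold change of all tested regions moved from values near 0 to 0.63, 0.51, 0.30, 0.58 and 0.66 at days 2, 3, 7, 14 and 21, and the locus median stood 1.29, 1.14, 1.62, 1.17 and 1.44 above it, against 1.20, 1.06, 1.59, 1.11 and 1.44 with TMM. The log2 ratio of the locus sum to fibroblasts was then 1.83 at day 2, 1.69 at day 3, 1.87 at day 7, 1.69 at day 14 and 2.04 at day 21, so that day 21 and not day 7 was the highest, the upper flank stood at 0.88, and the lower flank turned to 0.12. Regions called higher than fibroblasts were then 182, 154 and 162 at days 2, 3 and 14, where 23.1, 20.8 and 21.4% of all tested regions were. From early to late 2 rose, where 0.999% of all did. At an adjusted p under 0.01 the counts were 65, 65 and 69, with 3 rises from early to late. With no filter on low counts they were 57, 67 and 54, with 0 rises from early to late, where 0.0119% of all regions rose, and 0 falls. Without the 3 libraries that stand apart the locus sum differed by 0.29 on the log2 scale (exact permutation p = 0.0238). Then 12 regions rose from early to late, where 3.09% of all did, and 4 were higher at day 21 than at day 2. Where a count in this section stands without the share of all tested regions, no change of the locus is read from it.

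Leaving out each library in turn gave 0.058 to 0.24 for the log2 difference of the locus sum between late and early cells. It gave 0.67 to 1.11 for the promoter region, whose exact permutation p was between 0.0563 and 0.0866 without day 14 replicate 1 or 2 or any day 21 replicate. It gave 103 to 168 regions higher at day 21 than in fibroblasts, 3 to 10 rises from early to late, and 0 to 1 regions higher at day 21 than at day 2, that 1 without day 2 replicate 2 or day 3 replicate 1. The number of counts limits the weak regions most, where 1 count is up to 0.360 CPM. Over these alternatives the adjusted p of the 7 regions called between late and early cells ran from 0.0017 to 0.83. It was under 0.05 in 24 of 25 for chr13:12016194-12017516, 23 of 25 for chr13:12187721-12189811 and 22 of 25 for chr13:12181881-12182805. For chr13:12223333-12224137 it was so in 22 of 24, and for chr13:12177017-12179234 in 19 of 25. For chr13:12167479-12167816 and chr13:11680501-11681180 it was so in only 16 and 15 of 24. The replicate numbers did not in general pair the libraries. Over 45 pairs with the same number the correlation of deviations ran from -0.157 to 0.321, and 2 were over 0.1. Both were pairs of day 2 with day 3, of replicate 1 (0.321) and replicate 2 (0.214). Day 2 replicate 2 had 0.22 with day 3 replicate 3 too. With the replicate number as a block, 106, 107, 177, 108 and 154 regions were called higher than fibroblasts. From early to late 7 rose, where 2.45% of all did, and 1 fell, and 0 differed between days 21 and 2. The promoter region's log2 change from early to late was then 0.86 with an edgeR adjusted p of 0.025.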
